A study of Mus musculus with 4 samples.

Results

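The DNA repair genes described here are the protein-coding genes of GENCODE release M21 whose symbols begin with Fanc, with Rad5 and a further digit, or with Xrcc, Brca, Ercc, Mlh or Msh and a digit. The rule is a rule on names and uses no measured value. It takes 46 of the 21911 protein-coding genes on the assembled nuclear chromosomes, and they lie on 18 chromosomes. In 5 of them the symbol fits although the role in repair is different or less certain (Ercc6l, Ercc6l2, Fancd2os, Rad51ap2 and Rad54l2), and these are kept as a group of their own.

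Foxr2 is a forkhead transcription factor, and its binding was mapped by CUT&RUN, in which an antibody bound to chromatin directs a nuclease to release the DNA around its target. The antibody recognized the V5 tag. The Foxr2 p53LOF group was 2 replicates of a neurosphere line from a C57BL/6J mouse brain tumor raised by in utero electroporation (IUE) of embryonic ganglionic eminence. The electroporated vectors were a piggyBac transposon that expresses FOXR2, tagged with V5 at its C-terminus, from the ubiquitously active CAG promoter, and a CRISPR vector against Trp53. The V5 control group was 2 replicates from a separate C57BL/6J IUE model of genotype H3.3G34R that lacks the V5 tag, so all 4 libraries came from IUE lines treated with the same antibody. The V5 tag and the cell line differ together between the groups and cannot be told apart. Nothing in the labels says whether replicates came from separate cultures, and the binding is that of an overexpressed, tagged protein.

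Cells repair different lesions by different routes. Mismatch repair removes replication errors, nucleotide excision repair cuts out bulky adducts, and the Fanconi anemia pathway unhooks crosslinks between the strands. Double-strand breaks are rejoined by non-homologous end joining or copied from the sister chromatid by homologous recombination, and several Fanconi and recombination genes of this set are known tumor suppressors. Some of these genes lie head to head with an unrelated neighbor, so that a stretch of DNA serves the starts of both.

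The deposited lists held 31909 and 38580 peaks in Foxr2 p53LOF replicates 1 and 2, and 308 and 124 peaks in the V5 control replicates. Each peak has a fold enrichment, the fragments at its summit plus 1 over the expected background plus 1, and a −log10 q value for that excess. A peak list shows no read total, and the precision of a fold is set by the fragments behind it. A fold above 6 took 13 fragments in replicate 1 and 18 in replicate 2. The 95% Poisson intervals given below cover counting error only.

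A peak within 1 kb of a transcript start was listed in both Foxr2 p53LOF replicates for 41 of the 46 repair genes, 89.1%, against 51.3% of all protein-coding genes. The filter of the study's methods was then applied, which keeps peaks with a fold above 6, a −log10 q above 6, a length under 10000 bp and no overlap of 10 bp or more with a control peak. Where filtered peaks of replicate 1 and replicate 2 overlapped, by 1 bp or more, the overlap was called a reproducible site. Such a site lay at 34 repair genes, 73.9%, against 39.2% of all genes. The lower of the 2 replicate folds was above 10 at 19 repair genes, 41.3%, against 19.7% of all genes.

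Neither V5 control replicate had a peak within 1 kb of a start of any of the 46 genes, nor anywhere in these genes or the 10 kb around them. Control peaks at starts were rare throughout, with 0.132% of all genes having one. The control lists were also short, and the lowest folds they held were 4.08 and 4.87, so a weaker signal would not be listed. Their recovered backgrounds were 1.69 and 0.642 fragments. The filter drops peaks that overlap a control peak, so the absence of one over a called site is set by the filter. Without that removal 34 repair genes had a site as well. With 2 libraries against 2, an exact permutation test cannot give a two-sided p below 0.333, and no test was made.

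Across all genes the share with a site went with the base composition of the promoter. A promoter was called CpG-rich where the 500 bp on either side of the start with the highest CpG ratio had over 50% G and C and a CpG ratio, observed over expected, above 0.6. By this measure 38 of the 46 repair genes were CpG-rich, and 28 of them had a site. That is 73.7%, against 67.9% of all CpG-rich genes, so beside promoters of like composition the repair genes stood near the background. Of the 8 repair genes below these limits, 6 had a site (Ercc1, Fancg, Rad51b, Rad51d, Rad54l and Xrcc5), against 10.9% of all CpG-poor genes. The median CpG ratio of the 8 was 0.546, against 0.261 for CpG-poor genes in general, and the lowest were 0.389 at Fancd2os and 0.455 at Rad54l.

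**Figure D1:**
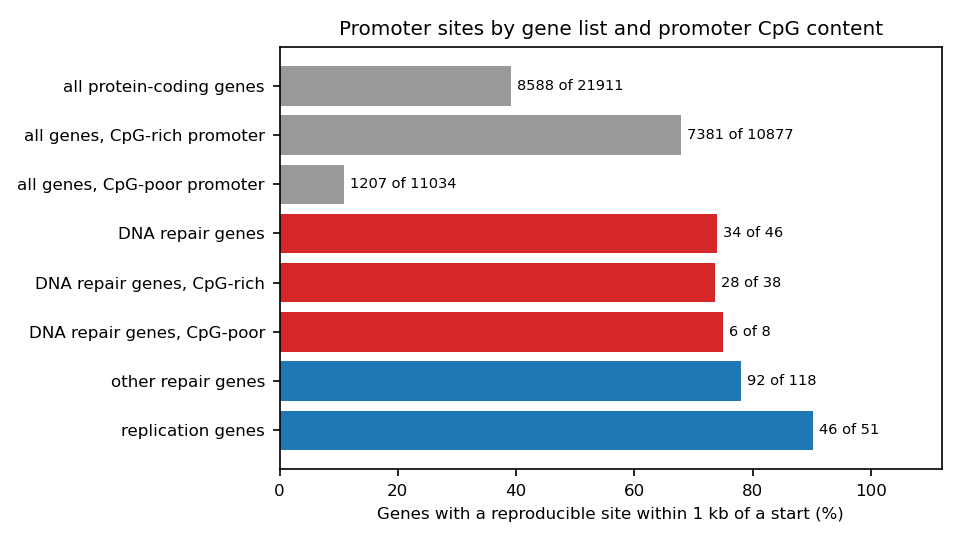
Share of genes with a reproducible Foxr2 site within 1 kb of a start (horizontal axis, percent, from 0), for all protein-coding genes (gray), the DNA repair genes (red) and 2 comparison lists (blue), with the counts beside each bar. The bar of CpG-rich repair genes (28 of 38) lies close to that of all CpG-rich genes (7381 of 10877).

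Where a repair gene had a site, the site was of ordinary height. The median of the lower fold was 10.8 over the 34 genes and 10.2 over the 8588 genes of the genome with a site. Of the 34 sites, 11 lay above the upper quartile of all genes with a site and 7 lay below the lower quartile. The lower fold ran from 6.19 to 40.2, the latter at Brca1.

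**Figure D2:**
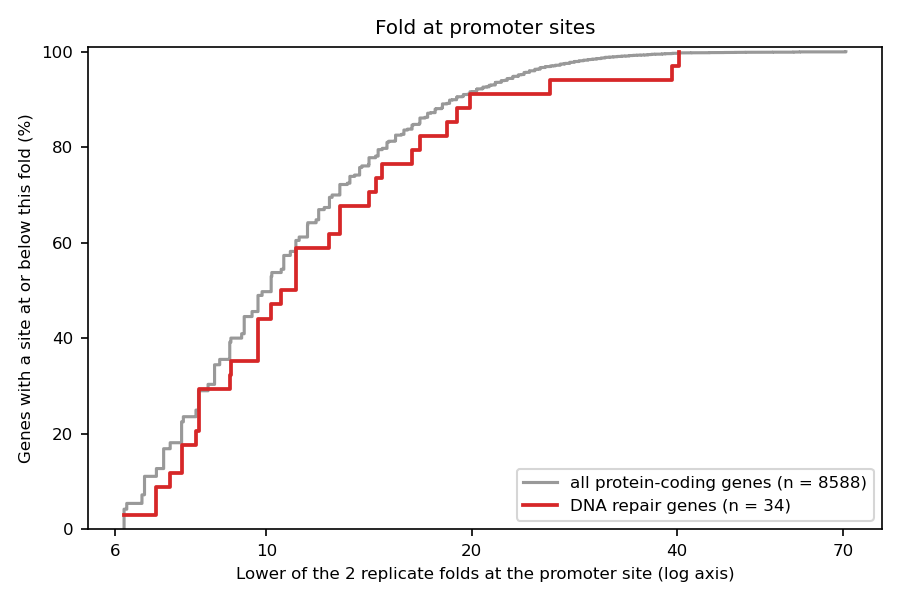
Cumulative share of genes (vertical axis, percent) by the lower of the 2 replicate folds at their promoter site (horizontal log axis), for the 34 DNA repair genes with a site (red) and all 8588 genes with a site (gray). The red curve runs slightly to the right of the gray one, with medians of 10.8 and 10.2, and ends at Msh3 and Brca1.

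The highest site among the repair genes was at Brca1, the tumor suppressor that directs broken ends into homologous recombination. Its fold was 40.2 in replicate 1 (95% interval 32.4 to 49.3, 90 fragments) and 47.6 in replicate 2 (40.2 to 56.0, 144 fragments). Both control replicates had no peak there, and the lower fold stood at the 99.8th percentile of all genes with a site. The site, chr11:101551230-101554021 in GRCm38, is shared with Nbr1, an autophagy receptor gene that starts 270 bp away on the opposite strand. The summits lay outside Brca1, 555 and 570 bp upstream of its nearest coding start but only 200 and 205 bp from a start of Nbr1. A peak list cannot assign the signal to either gene.

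The 150 exon-free bases next to the annotated 5′ end of Brca1, on the side of Nbr1, are shown because the highest repair gene site covers them, with the summits on the Nbr1 side of this stretch. They are read 5′ to 3′ on the strand of Brca1 from GRCm38.p6, and capitals mark CCAAT, the letters bound by the factor NFY.

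Brca1 to Nbr1, chr11:101551956-101552105, minus strand: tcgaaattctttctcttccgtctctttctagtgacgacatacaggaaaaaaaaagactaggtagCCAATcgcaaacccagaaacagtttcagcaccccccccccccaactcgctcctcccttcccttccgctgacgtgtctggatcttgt

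Msh3 came next. It encodes a MutS subunit that recognizes insertion and deletion loops in mismatch repair. Its fold was 39.3 in replicate 1 (31.6 to 48.4, 88 fragments) and 44.0 in replicate 2 (36.9 to 52.1, 133 fragments), with no control peak. The intervals of Msh3 and Brca1 overlapped in each replicate, so their order is not fixed by these counts. At the Msh3 site, chr13:92353165-92357625, the summits fell in a coding exon, 114 and 99 bp past its start.

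Ercc6l2, a helicase-like gene placed here by its symbol, had 26.1 in replicate 1 (19.9 to 33.6) and 31.9 in replicate 2 (25.9 to 38.8). Its site, chr13:63814329-63816559, was the highest of the repair gene sites that no other gene shared. The next was Ercc6, which encodes the Cockayne syndrome protein that couples excision repair to stalled transcription. It had 19.9 (14.6 to 26.5) and 26.0 (20.6 to 32.3) at chr14:32512714-32514470. Neither gene had a control peak, and replicate 2 was the higher in both, within overlapping intervals.

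All 3 non-homologous end joining genes had high sites. Xrcc6 and Xrcc5 encode the subunits of the Ku ring that caps broken ends, and Xrcc4 encodes the scaffold of the ligase that seals them. Xrcc6 had folds of 19.0 (13.8 to 25.5) and 20.7 (15.9 to 26.4). Xrcc4 had 18.6 (13.4 to 25.0) and 18.4 (13.9 to 23.9). Xrcc5 had 16.3 (11.6 to 22.5) and 20.7 (15.9 to 26.4). Each was above a fold of 10 in both replicates and without a control peak, and the median lower fold of 18.4 was the highest of the groups with more than 2 members. Of 10 further end joining genes outside the naming rule, 6 had a site, with a median of 7.73.

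The 10 highest also held genes of homologous recombination. Rad52, which anneals single strands, had 16.8 (12.0 to 23.0) and 17.4 (13.1 to 22.7). Rad51ap1, which stimulates strand exchange, had 15.5 (10.8 to 21.4) and 14.8 (10.8 to 19.7). No control peak lay at either, and the replicates' intervals overlapped at each. The 10 highest rested on 33 to 144 fragments per summit, 9 of them had CpG-rich promoters, and 6 had a site that also lay within 1 kb of the start of another gene.

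**Figure D3:**
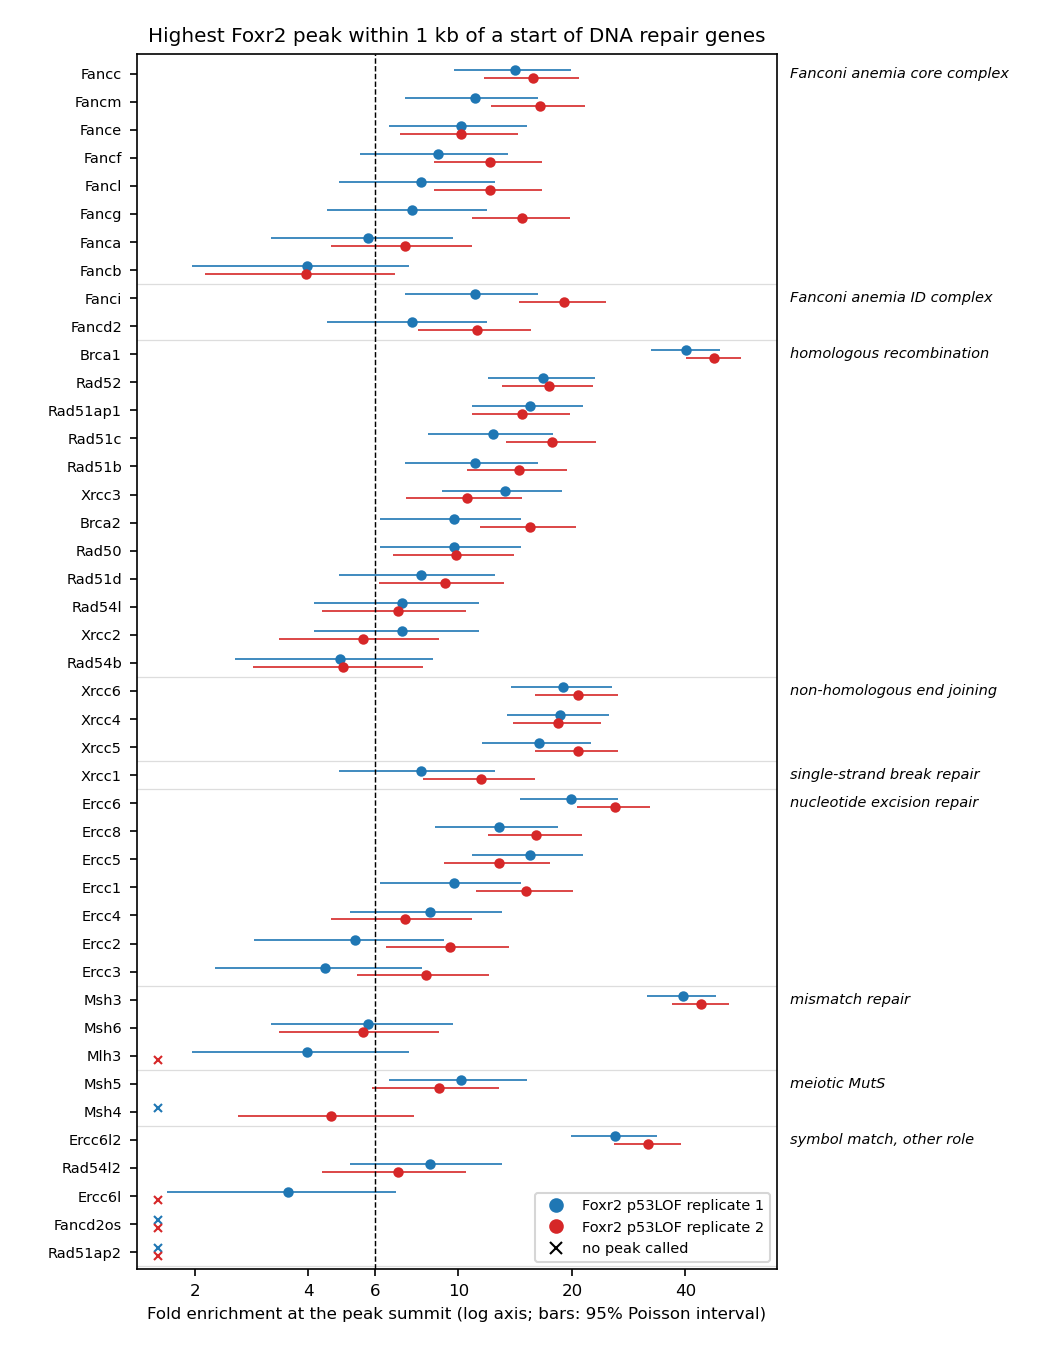
Fold enrichment of the highest peak within 1 kb of a start (horizontal log axis) for the named DNA repair genes, grouped by pathway, in Foxr2 p53LOF replicate 1 (blue) and replicate 2 (red), with 95% Poisson intervals; crosses mark replicates with no peak and the dashed line marks a fold of 6. Brca1 and Msh3 stand to the right of all others, and the replicates' intervals overlap for every plotted gene with a peak in both.

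Among homologous recombination genes 11 of 13 had a site, with a median lower fold of 10.5. Beside Brca1, Rad52 and Rad51ap1 these included the strand exchange genes Rad51b, Rad51c, Rad51d and Xrcc3, the mediator Brca2, the end-tethering Rad50 and the motor gene Rad54l. Brca2 differed more between replicates, with 9.72 (6.19 to 14.6) and 15.4 (11.4 to 20.5). The strand exchange genes ranged from 7.95 in replicate 1 at Rad51d to 17.7 in replicate 2 at Rad51c.

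The Fanconi anemia core complex, which ubiquitinates the Fanci and Fancd2 pair at a crosslink, had sites at 6 of 8 genes (Fancc, Fance, Fancf, Fancg, Fancl and Fancm), with a median of 9.50. Its highest gene was Fancc, with 14.1 (9.75 to 19.9) and 15.8 (11.7 to 20.9). Fanci and Fancd2 both had a site, and in each the second replicate was the higher, 11.0 and 19.1 at Fanci and 7.51 and 11.2 at Fancd2. The widest gap between replicates in the whole set was at Fancg, with 7.51 (4.48 to 11.9) and 14.8 (10.8 to 19.7), a ratio of 1.97. These intervals, from 16 and 44 fragments, overlapped only between 10.8 and 11.9.

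Nucleotide excision repair had sites at 5 of 7 genes, with a median of 12.8. Beside Ercc6 these were Ercc8, its partner in the Cockayne syndrome complex, with 12.8 and 16.1, and 3 nuclease genes. The nuclease genes were Ercc5, with 15.5 and 12.8, Ercc1, with 9.72 and 15.1, and Ercc4, with 8.39 and 7.23. Ercc1 and Ercc4 encode the subunits of a heterodimer and had lower folds of 9.72 and 7.23. Xrcc1, the scaffold of single-strand break repair, had 7.95 and 11.5.

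Mismatch repair was uneven. Msh3 was near the top of all genes with a site. Msh6, another MutS subunit, fell short of the filter in both replicates, and Mlh3 had a peak in 1 replicate. Sites thus lay at 3 of 5 genes. Of the meiotic MutS pair, Msh5 had a site with 10.2 and 8.87, and Msh4 did not. Of the genes matched by symbol, Rad54l2 had a site besides Ercc6l2, with 8.39 and 6.90.

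Outside the 10 highest, the other 24 genes with a site had folds between 6.19 and 15.5 in replicate 1 and between 6.90 and 19.1 in replicate 2. Replicate 2 was the higher at 24 of the 34 genes with a site, 70.6%, as it was at 75.2% of all genes with a site. The 2 libraries had recovered backgrounds of 1.26 and 2.04 fragments. At all 41 repair genes with a peak in both replicates the counting intervals overlapped. Overlap of 2 such intervals is not a test, and it does not show that the replicates differ by counting error alone.

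**Figure D4:**
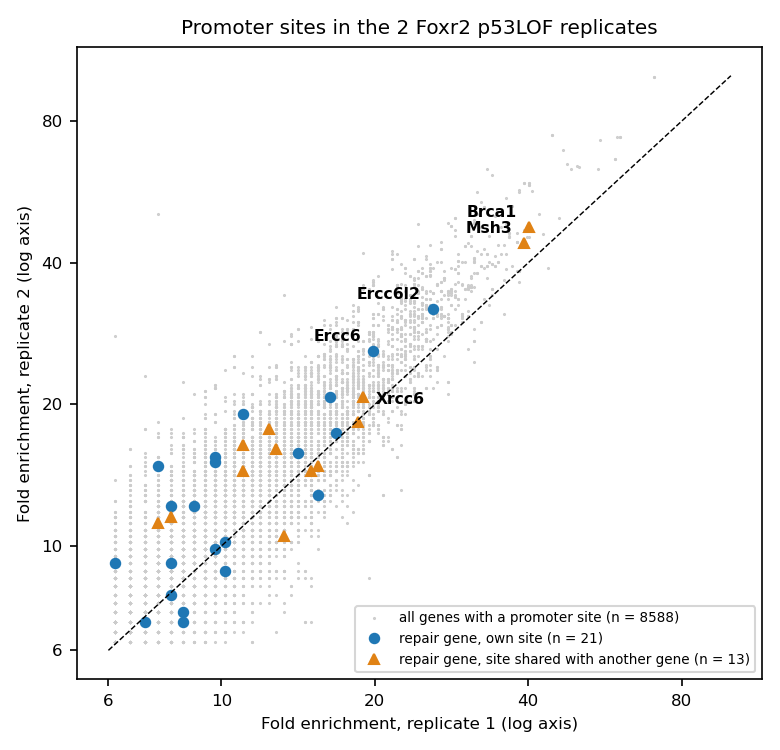
Fold enrichment in replicate 1 (horizontal log axis) and replicate 2 (vertical log axis) at promoter sites of all 8588 genes (gray) and of the repair genes, whose own sites are blue circles (21) and whose sites also within 1 kb of another gene's start are orange triangles (13); the dashed line marks equal folds and the 5 genes above the 90th percentile are named. The repair genes lie within the gray cloud, 24 of 34 above the line.

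The other 12 repair genes had no site. Peaks in both replicates that failed the filter were found at 7 genes, with folds of 5.74 and 7.23 at Fanca, 3.98 and 3.94 at Fancb, 4.86 and 4.93 at Rad54b, 7.07 and 5.59 at Xrcc2, and 5.74 and 5.59 at Msh6. The others were Ercc2, with 5.30 and 9.53, and Ercc3, with 4.42 and 8.21, which encode the helicases of the transcription factor TFIIH. Each of the 7 was under a fold of 6 in at least 1 replicate, and Fancb, Rad54b and Msh6 were under it in both.

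A fold above 6 needed 13 fragments in replicate 1 and 18 in replicate 2. Where they fell short, Fanca had 12 in replicate 1, Ercc2 had 11, Ercc3 had 9, and Xrcc2 had 16 in replicate 2. Msh6 had 12 and 16, Rad54b had 10 and 14, and Fancb had 8 and 11. For each of the 7 the 95% counting interval of the fold that fell short extended above 6.

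A peak in replicate 1 alone was listed for Ercc6l, with a fold of 3.53 (1.69 to 6.82), and for Mlh3, with 3.98 (1.97 to 7.41). A peak in replicate 2 alone was listed for Msh4, a meiotic gene, with 4.60 (2.60 to 7.63). Fancd2os and Rad51ap2 had no peak in any of the 4 libraries. No control replicate had a peak at any of these genes.

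Fancb and Ercc6l are the repair genes on the X chromosome, and neither had a site. Sites were sparse on X in general, at 98 of 948 genes or 10.3%, with a median lower fold of 7.88. On chromosomes 11 and 13 all 5 repair genes of each had a site, where 52.8% and 46.2% of all genes did. Of the 34 genes, 20 had a lower fold at or above the median of their own chromosome.

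Shared starts were frequent. A start of another protein-coding gene within 1 kb upstream on the opposite strand was annotated for 12 of the 46 repair genes, 26.1%, against 9.82% of all genes. Of the 12, 11 had a site, as did 1755 of the 2152 genes with such a neighbor in general. The exception was Fancb, paired with Mospd2. In all, 13 of the 34 sites, 38.2%, also lay within 1 kb of the start of another gene, against 25.9% of the sites of all genes. The median lower fold was 12.8 at the 13 shared sites and 9.72 at the 21 others, and over all genes it was 11.5 and 9.72.

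At 6 of the 13 the summits of both replicates were closer to the neighbor than to the repair gene. These were Brca1 with Nbr1, Fancm with Fkbp3, Rad51ap1 with D6Wsu163e, Rad51b with Zfyve26, Xrcc3 with Zfyve21, and Xrcc4 with Tmem167. The clearest was Fancm, whose summits lay 1806 and 1764 bp from its own start but 100 and 58 bp from that of Fkbp3. At Xrcc3 the summits were 412 and 488 bp from its start and 18 and 94 bp from that of Zfyve21.

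The exon-free stretches at 2 more such pairs are shown, up to 150 bases on the side of the repair gene, since a repair gene and its neighbor share a site over each. Capitals mark CCAAT or its reverse complement ATTGG, and GGGCGG or CCGCCC, the letters of the SP and KLF factors. All are read on the strand of the repair gene, in GRCm38.p6.

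Ercc8 to Ndufaf2, chr13:108158624-108158730, plus strand: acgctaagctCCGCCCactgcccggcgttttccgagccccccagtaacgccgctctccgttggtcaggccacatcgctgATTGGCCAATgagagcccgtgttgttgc

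Xrcc3 to Zfyve21, chr12:111813874-111814023, minus strand: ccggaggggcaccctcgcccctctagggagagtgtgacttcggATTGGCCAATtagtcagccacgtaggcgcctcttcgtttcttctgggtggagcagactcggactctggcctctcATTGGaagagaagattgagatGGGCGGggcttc

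Such an exon-free stretch of 29 to 150 bases was read for 10 of the pairs, and 6 of the 10 held CCAAT on either strand. Those shown for Brca1, Ercc8 and Xrcc3 are among the 6. Pairs of other genes were not read, so this count has no background share beside it. In the 200 bp before the most upstream start, CCAAT was found at 21 of the 46 repair genes, 45.7%, against 31.7% of 21829 genes. GGGCGG was found there at 24, 52.2% against 38.3%. The NRF1 letters GCGCATGC were found at 4, 8.70% against 2.95%. TTTGAA, a cell cycle element, was found at 3, 6.52% against 11.2%, and the ETS core CCGGAAGT at 1, 2.17% against 3.16%. The forkhead letters TGTTTAC were at 2, 4.35% against 2.03%, the E2F letters TTTCGCGC or TTTGGCGC at 1, 2.17% against 0.678%, and TGACGTCA of CREB and ATF at 1, 2.17% against 1.89%. AAGATGGCG of YY1 was at none, against 0.568%. These are matches of letters on both strands and not measured binding.

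The rule asks only that some base of a site be near a start, so the summits were placed separately. In replicate 1, 18 of the 34 summits lay within 250 bp of a start of the gene, 52.9% against 59.4% of all genes with a site, and in replicate 2, 20 did, 58.8% against 60.3%. In replicate 1, 16 summits fell outside the gene, 8 in a coding exon, 6 in an intron and 4 in an untranslated exon. In replicate 2 the numbers were 10, 8, 9 and 7. At 20 of the 34 genes the summits of the replicates were within 100 bp of each other. The gene parts and this spacing were counted for the repair genes only. No share over all genes stands beside them, so whether they are unusual cannot be said.

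**Figure D5:**
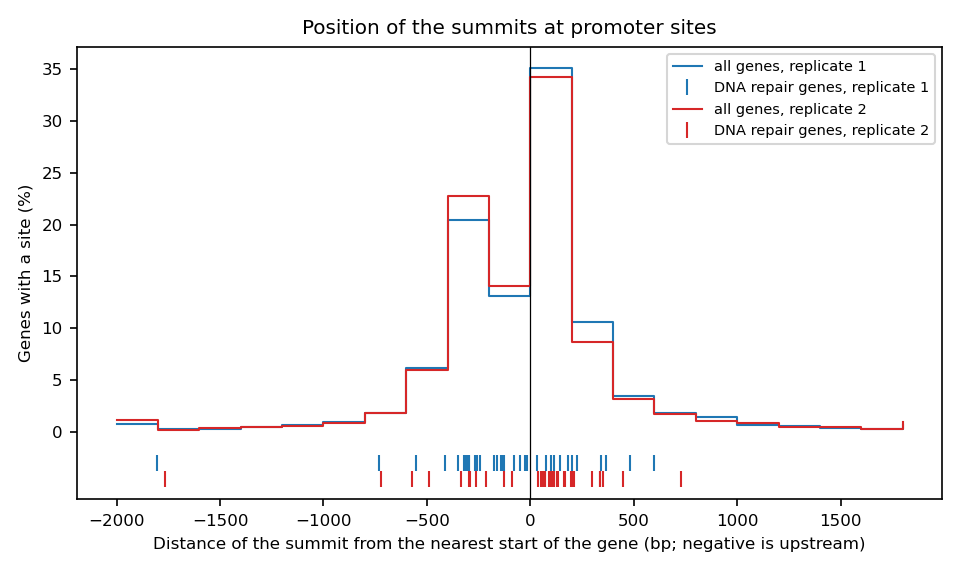
Distance of the peak summit from the nearest start of the gene (horizontal axis, bp, negative upstream) at promoter sites of all 8588 genes, as the percent of genes per 200 bp with distances past the axis counted in the end bins (lines), and of the 34 DNA repair genes (ticks), for replicate 1 (blue) and replicate 2 (red). The ticks gather near the start, with Fancm apart at 1806 and 1764 bp upstream.

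Motif letters were then sought in the 200 bp around the mean of the 2 summits. ETS factors were among the factor families the study asked about. Their core CCGGAAGT, sought on both strands, was present at 3 of the 34 repair gene sites (Fancd2, Rad50 and Xrcc4). That is 8.82%, against 2.48% of all 7807 promoter sites and 3.81% of 54327 starts. At these 3 genes the summits of the replicates lay 532, 491 and 545 bp apart, so the window lay between the summits and held neither of them. The core was 261 and 271 bp from the summits of replicates 1 and 2 at Fancd2, 250 and 241 bp at Rad50, and 354 and 191 bp at Xrcc4. The count was 6 in a window of 400 bp (Ercc1, Ercc5 and Ercc6l2 in addition), where 6.89% of promoter sites had it, and 1 in 200 bp around the centre of the site, 2.94% against 3.68% of promoter sites. With so few matches the number depends on where the window is placed. The 3 cores are shown in their surroundings, written in the direction of the core with the core in capitals, and all 3 are on the minus strand of GRCm38.p6.

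Fancd2, chr6:113531626-113531653: ctcgcccgcaCCGGAAGTtgacggcctg

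Rad50, chr11:53707187-53707214: gcccgcggggCCGGAAGTgctctcgcca

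Xrcc4, chr13:90089500-90089527: ttttagaagaCCGGAAGTggagtactga

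Distances were taken from the gene's start nearest the replicate 1 summit. The core was 42 bp upstream at Fancd2, 118 bp downstream at Rad50 and 94 bp downstream at Xrcc4. Fancd2 shares its site with Emc3, which starts 30 bp away on the opposite strand. The core there lies past the start of Emc3, inside that gene. Xrcc4 was among the 10 highest sites, whereas Rad50, with 9.72 and 9.86, and Fancd2, with 7.51 and 11.2, were not.

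The forkhead letters TGTTTAC were present at 1 of the 34 sites, that of Brca2, 2.94% against 1.47% of promoter sites. The E2F letters TTTCGCGC or TTTGGCGC were also found at Brca2 alone, 2.94% against 0.743%. The match is shown because Foxr2 belongs to the forkhead family, in the exon-free part of the Brca2 site nearest the summits, on the plus strand of GRCm38.p6, with the reverse complement GTAAACA in capitals.

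Brca2, chr5:150522304-150522423: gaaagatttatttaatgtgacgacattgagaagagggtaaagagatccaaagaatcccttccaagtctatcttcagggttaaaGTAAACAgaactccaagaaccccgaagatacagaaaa

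Of the other letters, CCAAT was at 10 sites, 29.4% against 18.3% of promoter sites, and GGGCGG at 10, 29.4% against 39.5%. TTTGAA was at 4, 11.8% against 7.15%, and GCGCATGC at Ercc6 and Fanci, 5.88% against 1.90%. AAGATGGCG of YY1 and TGACGTCA of CREB and ATF were in none of these windows, against 1.51% and 0.973% of promoter sites. Some of these numbers moved with the window. In 200 bp around the centre of the site, TTTGAA was at 1, 2.94% against 7.04% of promoter sites. There GCGCATGC was at 1, 2.94% against 1.99%, and TGACGTCA at 1, 2.94% against 1.31%. CCAAT was at 10, 29.4% against 20.8%, and GGGCGG at 14, 41.2% against 44.3%. The E2F letters were at 2, 5.88% against 0.833%, and the forkhead letters at none, against 1.29%.

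Sites away from the starts were few. Sites that lay over 1 kb from every protein-coding start but within a repair gene or 10 kb of it were found for 5 of the 46 genes, 10.9%, near the 11.0% of all genes. Fancc had 5 such sites, all intronic, the highest at chr13:63316302-63319966 with 11.9 and 14.1. Rad51b had 3 intronic sites, the highest at chr12:79732039-79733977 with 11.0 and 16.8. Both are long genes. Xrcc4, Xrcc5 and Xrcc6 had 1 each, with folds of 7.51 and 10.5, 6.19 and 8.21, and 6.19 and 6.57.

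Repair genes that the naming rule does not reach were close to those it does. Of 118 such genes, from damage signalling kinases to glycosylases, 92 had a site, 78.0%, with a median lower fold of 9.72. The highest were Cdk7, a kinase of TFIIH, with 33.6 and 40.1, Rmi1, of the complex that dissolves recombination intermediates, with 29.2 and 40.4, and Ogg1, the oxidized guanine glycosylase, with 27.8 and 29.2. By pathway the share ran from 5 of 9 genes for direct reversal and lesion bypass to 3 of 3 for further mismatch repair genes. Among 51 DNA replication genes 46 had a site, 90.2%, with a lower median of 8.69. Their highest were Pole4, Mcm7 and Orc6, with replicate 1 folds of 26.5, 24.7 and 23.4 and replicate 2 folds of 35.8, 30.6 and 31.2. The promoters of 83.1% of the other repair genes and 86.3% of the replication genes were CpG-rich, as were 82.6% of the 46.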

How the data were processed

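V5 CUT&RUN peak lists of 4 libraries were analysed, in groups taken from the sample labels. Per the labels and methods, the authors trimmed reads with Trimmomatic 0.39, aligned them to mm10 with BWA 0.7.17, removed duplicates with Picard 2.26.6 and called peaks per library with MACS2 2.2.7.1. No input library is named for that step. In the deposited lists, fold enrichment is the ratio MACS2 gave the authors, and the deposited −log10 p and −log10 q were computed by the authors within each library. The deposited score is 10 times the −log10 q and was not used further.

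Here, the background of each library was recovered as the value that turns folds into whole fragments. It gave whole numbers (within 0.05) for 91.1% to 99.98% of peaks. The search and the site caller were tested on simulated peaks. Transcript starts were those of protein-coding transcripts, and any base of a peak within 1 kb counted. The filter kept 13418 and 14864 peaks and gave 11947 sites. Intersection with accessible chromatin, the last step of the study's filter, was not repeated. Values in every library are given for the 10 highest genes and for genes without a site, but some genes are not reported here by name and enter the counts only. The members and lists were chosen with earlier results of these data known, and all counts are descriptions with no test. Motifs were matched as exact letters on both strands. Python 3.11.15, pandas 2.3.3, SciPy 1.17.1 and pysam 0.24.0 were used. The closing section gives the alternatives.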

Additional observations from a re-analysis of the deposited data

How the results depend on the processing

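The number of repair genes with a peak in both replicates was 41 and lay between 40 and 43 in the 7 alternatives run. The number with a reproducible site was 34 and fell to 19 at a minimum fold of 10, which by construction keeps fewer peaks. In the other 12 alternatives (promoter window, transcript set, summit position, no minimum fold, −log10 q, length limit, control overlap, shared overlap and replicates left out) it lay between 32 and 37. The median lower fold was 10.8 and rose to 14.5 at a minimum fold of 10. With a replicate left out, the numbers rest on the other library alone, with no agreement of replicates and no lower of 2 folds. The first number was 42 without replicate 1 and 43 without replicate 2, the second 37 and 35, and the median 14.5 and 11.0. By construction these counts cannot fall below those that ask for both replicates. The ETS core count of 3 was 6 in 400 bp and 1 around the site's centre. No paired analysis was possible because the results come from no test. The fragments at a summit limit the folds near the filter, and read totals were not used here. Binding was measured in cells of 1 genotype against a control of another, and expression of the genes was not analysed here.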
